A study of Homo sapiens with 3 samples.

Results

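The cells described here were 374 cells of the day 23 library (D23) that carried the most RNA of the transcription factor genes SOX11 and NR2F1 among cells with pigment gene transcripts. They were chosen in 2 steps. A pigment gate kept cells whose unique molecular identifiers (UMIs, each standing for 1 captured RNA molecule) of PMEL, MLANA, DCT and TYRP1 came to at least 10 in 10000, and 2490 of the 3795 D23 cells past the quality limits met it. The gated cells were then ranked by the sum of SOX11 and NR2F1 UMIs per 10000. The top 15% became the members and the bottom 50%, 1245 cells, became the low cells they were set against, with 871 cells between. The 3 libraries held 15630 cells past the limits.

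The study drove human pluripotent stem cells towards melanocytes through embryoid bodies and sequenced the cultures by droplet RNA sequencing on day 23, day 32 and day 44 (D23, D32 and D44). GEO's sample titles name induced pluripotent stem cells, whereas the source and cell line fields name H9, an established human embryonic stem cell line, and the 2 labels could not be reconciled here. Each day was 1 library. D23 came from an induction and a sequencing batch of its own, and D32 and D44 shared both, so the day cannot be told apart from the induction. All cells had passed through the same melanocyte medium, with conditioned medium of L-Wnt3a cells, SCF, endothelin-3, bFGF, dexamethasone, cholera toxin, TPA, ascorbic acid, insulin-transferrin-selenium and linoleic acid-bound albumin. In the protocol the embryoid bodies were later plated, and the plated cells were then passaged in medium with a little serum and no TPA. Which of these steps the D23 cells had reached is not stated. Plating, serum and TPA may therefore also differ between D23 and the later libraries. The cells were frozen before library preparation. The cultures are mixtures with no sort for melanocytes, and the same genotype stands behind members and low cells.

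SOX11 is an SRY-box transcription factor of embryonic neural and crest progenitors, and SOX10, of another SOX subgroup, is the SOX factor that melanoblasts keep. NR2F1, also called COUP-TFI, is an orphan nuclear receptor that marks neural crest cells and acts at their enhancers together with TFAP2 factors. A melanocyte precursor turns on MITF, the master regulator of the lineage, which drives the pigment genes; PMEL builds the fibrils of the melanosome, and TYR, TYRP1 and DCT are the enzymes of melanin synthesis. SOX11 (ENSG00000176887) lies at chr2:5692384-5701385 and NR2F1 (ENSG00000175745) at chr5:93583222-93594611 of GRCh38, both on the plus strand.

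Kept D23 cells held 49846673 UMIs with a median of 12574 a cell, and the D32 and D44 medians were 36375 and 42937 UMIs. Members had a median of 11368 UMIs and low cells one of 12717. The libraries shared 8, 2 and 15 cell barcodes (D23 with D32, D23 with D44, D32 with D44). With 1 library there is no replicate of D23, so its values carry no test. They are given as CPM, a gene's count scaled to 1e+06 UMIs of the group, and a ratio of members over low cells carries a 95% interval that covers counting error only.

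The ranking genes themselves describe the choice and are no finding. SOX11 stood at 732 CPM in members and 83.4 CPM in low cells, and NR2F1 at 905 CPM in members and 95.1 CPM in low cells. The lowest member had 8.151 UMIs per 10000 of both genes together and the highest cell outside had 8.147, about 10.3 UMIs at the median depth. The highest low cell had 3.492 and the next cell above it 3.493 UMIs per 10000. The sum ran on without a gap at both limits. The highest member reached 186 UMIs per 10000, and 161 gated cells had no UMI of either gene.

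The 2 genes picked partly different cells, with more overlap than unrelated lists would have. The top 15% by SOX11 alone and the top 15% by NR2F1 alone, 374 cells each, shared 117 cells, 31.3% of either list. Unrelated lists of this size would share about 15%. NR2F1 was higher in the SOX11 list than in the low cells of that ranking, a ratio of 1.90 (1.80 to 2.01). SOX11 was higher in the NR2F1 list than in the low cells of that ranking, a ratio of 3.21 (3.03 to 3.39). Among gated cells under 5 CRABP1 UMIs per 10000 the lists held 362 cells each and shared 80, 22.1% of either list. The NR2F1 and SOX11 ratios there were 1.38 (1.30 to 1.46) and 1.36 (1.27 to 1.47).

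The members were of 3 kinds, set apart by genes that the ranking did not use. CRABP1, a carrier protein of retinoic acid, split them cleanly. In 78 members it came to at least 5 UMIs per 10000, with 64 of them above 100, while 295 members lay under 2 and no low cell reached 5. These CRABP1-rich members averaged 21835 CPM of CRABP1, against 7.16 CPM in low cells. A further 42 members were rich in other markers, with at least 10 UMIs per 10000 of a neural tube list (13 cells) or of a mesenchymal list (38 cells). The remaining 254 members met none of these limits and are called marker-poor below. These limits were set after the cells had been seen, so low levels of the listed markers in marker-poor members are no finding.

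**Figure D1:**
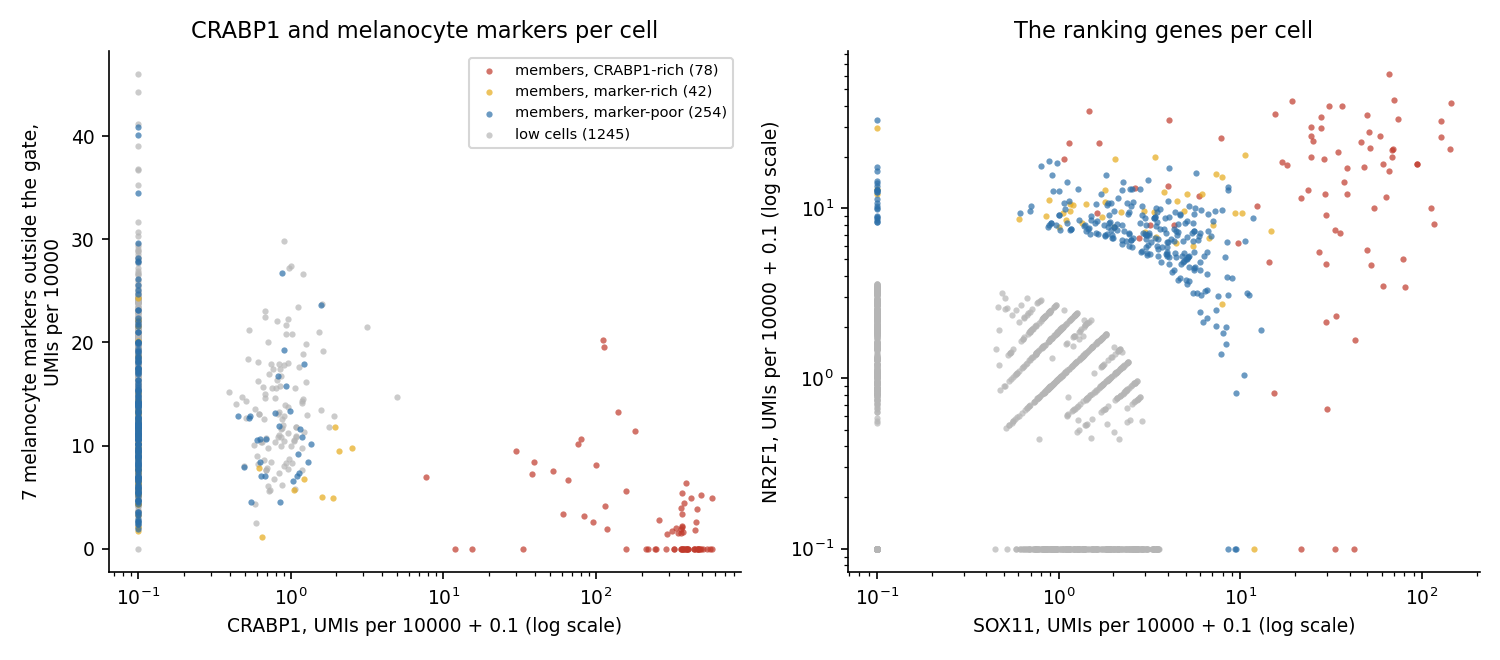
Left, CRABP1 UMIs per 10000 plus 0.1 (log scale) against the summed UMIs per 10000 of 7 melanocyte markers outside the gate, 1 point a cell. Right, SOX11 against NR2F1, UMIs per 10000 plus 0.1 (log scales). The 78 CRABP1-rich members (red) lie apart on the left plot, 38 of them with no UMI of the 7 markers, and mostly at the upper right on the right plot. The 42 marker-rich members are orange, and the 254 marker-poor members (blue) lie within the range of the 1245 low cells (grey) on the left plot.

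The CRABP1-rich members went against the name melanocyte. SOX10, the crest and melanoblast factor, stood at 37.7 CPM in them and at 119 CPM in low cells, and MITF at 110.0 CPM in them and 341 CPM in low cells. Of the 78 cells, 38 had no UMI of the 7 melanocyte markers outside the gate (TYR, MITF, SOX10, PAX3, TRPM1, SLC24A5 and GPR143), against 1 of the 1245 low cells. They passed the gate narrowly, with a median pigment sum of 14.2 UMIs per 10000, against 33.2 in low cells. Their TYRP1 and DCT transcripts lay in few cells, as 5 cells held 97.4% of their 116 TYRP1 UMIs and 88.1% of their 396 DCT UMIs. PMEL was spread more widely, found in all 78 cells, with 21.1% of its 831 UMIs in 5 cells. For MLANA 5 cells held 46.5% of 114 UMIs.

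What they carried instead were genes of differentiating neurons. DCX, a microtubule protein of migrating neurons, had 542 CPM in CRABP1-rich members, and 345 UMIs there against 1 UMI in all low cells. HES6, a HES factor that promotes neuronal differentiation, had 2721 CPM in them and 113 CPM in low cells, and DLL3, a Notch ligand of the same cells, had 506 CPM in them and 6.63 CPM in low cells. The 15 genes with the highest ratio over low cells in the whole member group were DCX, ELAVL3, CRABP1, IGFBPL1, EBF3, RFX4, INSM1, CLDN5, TAGLN3, POU3F2, ATOH1, PANTR1, DACH1, EBF1 and DCC, and the CRABP1-rich members held 94.6% to 100% of the members' UMIs of each. All 15 lay between 0 and 7.16 CPM in low cells and met the minimum of 20 CPM for this list through the members alone, so the list describes the members and supports nothing further. Among these ELAVL3 is an RNA-binding protein of neurons, EBF1, EBF3, INSM1, POU3F2 and ATOH1 are transcription factors of neuronal differentiation, and DCC is a netrin receptor of growing axons.

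These 78 cells were shallow, with a median of 5396 UMIs, and Scrublet, which scores a cell by its likeness to simulated pairs of cells, called 11 of them doublets (14.1%). They held 59.2% of the members' SOX11 UMIs and 24.1% of the members' NR2F1 UMIs. Gene sums over all 374 members mix these cells with the others. The D23 cells under the pigment gate with few collagen transcripts, 396 cells, had 16474 CPM of CRABP1, 1845 CPM of SOX11 and 2000 CPM of HES6, levels of the same order as in CRABP1-rich members.

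The 42 marker-rich members were called doublets most often. Scrublet called 15 of them doublets (35.7%), with 9 calls among the 13 rich in neural tube markers, against 3 calls among the 1245 low cells (0.241%). All 3 of those calls lay among the 51 low cells that were marker-rich by the same limits (5.88%). They held 96.1% of the COL1A1 UMIs, 92.3% of the NEFM UMIs and 98.7% of the TTR UMIs of the 296 members outside the CRABP1-rich group. COL1A1 encodes a fibrillar collagen, NEFM a neurofilament and TTR the thyroid hormone carrier transthyretin. A single cell held 68 of the 78 TTR UMIs of all members. No doublet was called among the 254 marker-poor members.

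The marker-poor members carried melanocyte regulators at the level of low cells. SOX10 stood at 125 CPM in them and 119.8 CPM in the 1194 low cells under the same marker limits, a ratio of 1.04 (0.932 to 1.16), and MITF at 345 and 343 CPM, a ratio of 1.01 (0.943 to 1.07). In the 909 collagen-rich cells under the gate SOX10 had 4.80 CPM and MITF 13.8 CPM, far under both groups. Median depth was 12116 UMIs in marker-poor members and 12717 in low cells.

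Across all genes at 10 CPM or more in either group, 677 of 8858 were at least 1.5-fold higher in the 374 members than in low cells (7.64%) and 164 were at least 1.5-fold lower (1.85%). For the 254 marker-poor members the counts were 460 higher (5.33%) and 165 lower (1.91%) of 8638, and for all 296 members outside the CRABP1-rich group they were 475 higher (5.46%) and 141 lower (1.62%) of 8703. Of the 8858 genes, 575 reached 10 CPM in the members only and 243 in low cells only; such genes could differ in that direction alone, and where they stood in a list they are counted beside it. These shares are the background for the counts of listed genes below, and the median log2 ratio over all genes was 0.020 for all members and 0.034 for marker-poor members. Ranking the cells on counts thinned to 5000 UMIs a cell, which gives every cell the same depth, left 258 of 8669 genes higher and 49 lower. Against that background, 10 of 27 melanin genes were lower in the thinned ranking, 34 of 52 G2 and M phase genes were higher and 6 of 16 crest genes were higher. Ties at its limits made these groups larger, 518 high and 1591 low cells.

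**Figure D2:**
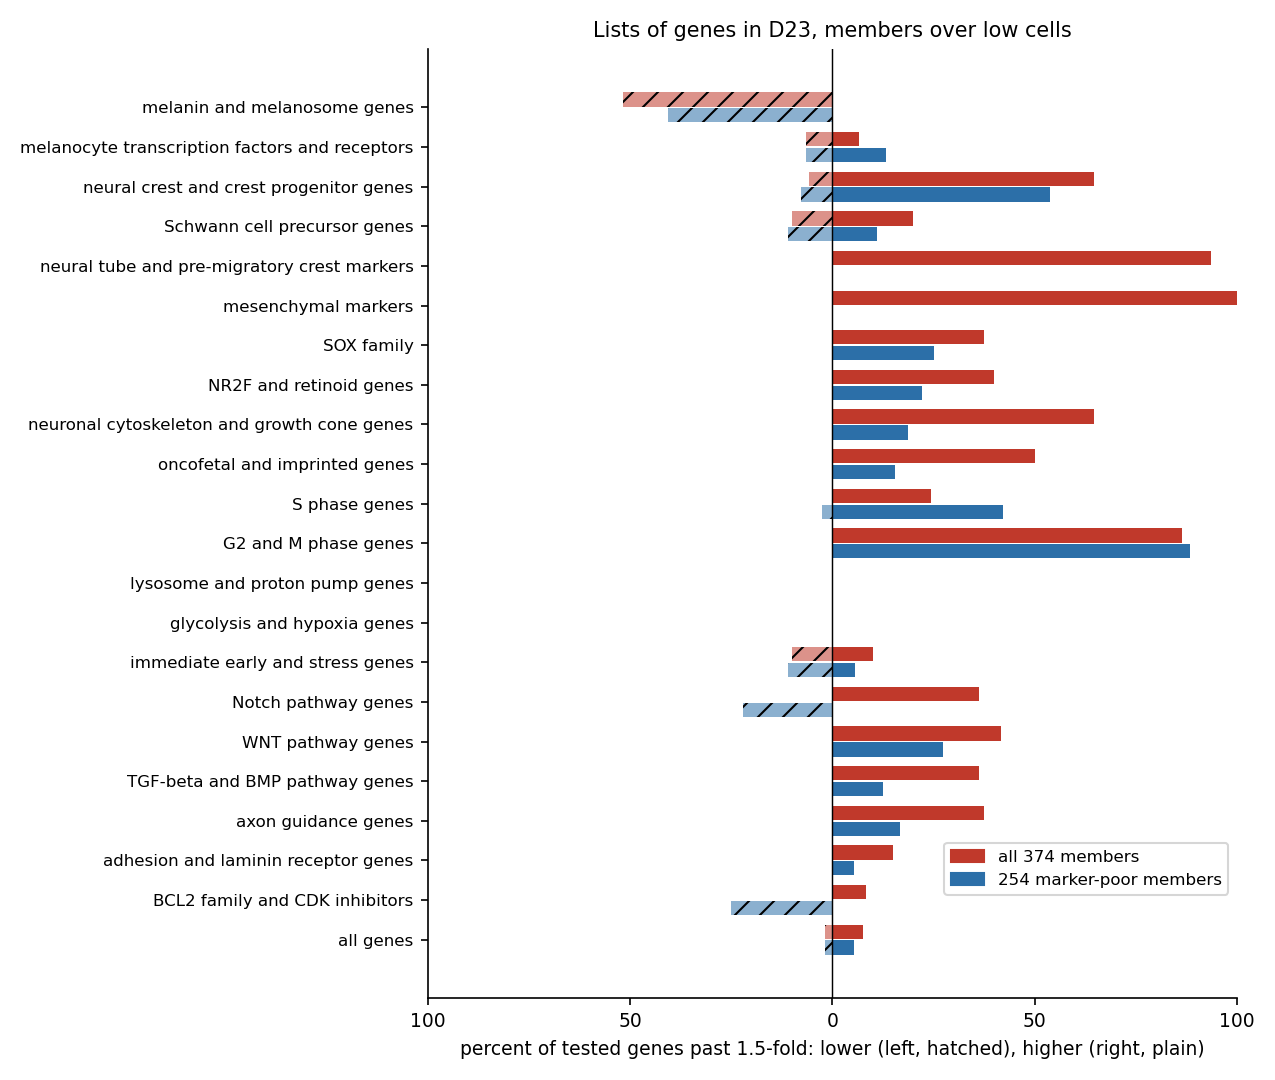
Percent of the tested genes of each list that were at least 1.5-fold lower (left, hatched) or higher (right) in members over low cells of D23, for all 374 members (red, upper bar) and for the 254 marker-poor members (blue, lower bar), with all genes as the last row. Melanin genes had the largest percent lower (14 and 11 of 27) and G2 and M phase genes were mostly higher (45 and 46 of 52) in both sets, while the bars of the neural tube and mesenchymal markers vanish for marker-poor members, as the choice of those cells fixes.

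Pigment genes were lower in members. Of 30 melanin and melanosome genes, 27 passed the minimum level, and 14 of them were 1.5-fold lower in the 374 members, with none higher and a median log2 ratio of -0.60. Of the 27, 5 reached the minimum in low cells only. Among marker-poor members 11 of 27 were lower and none higher, with a median of -0.37. PMEL, MLANA, DCT and TYRP1 also formed the gate, which every member and low cell had passed, but they had no part in the ranking.

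The pigment genes differed in the size of the gap. MLANA, a melanosome protein, had 314 CPM in marker-poor members and 658 CPM in low cells, a ratio of 0.477 (0.447 to 0.509). DCT, which converts dopachrome, had 677 CPM in marker-poor members and 1161 CPM in low cells, a ratio of 0.583 (0.558 to 0.610). TYR, the rate-limiting enzyme of melanin synthesis, had 28.2 CPM in marker-poor members and 62.3 CPM in low cells, a ratio of 0.453 (0.361 to 0.562). PMEL was nearest to equal levels among the gate genes, with 1575 CPM in marker-poor members, 1898 CPM in low cells and a ratio of 0.830 (0.805 to 0.855). GPNMB, a melanosome glycoprotein that other cell types share, stood level, with 1168 CPM in marker-poor members, 1153 CPM in low cells and a ratio of 1.01 (0.978 to 1.05).

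TYRP1, which stabilises tyrosinase, had the lowest ratio of the list. It stood at 83.4 CPM in marker-poor members and 257 CPM in low cells, a ratio of 0.324 (0.286 to 0.367). Its transcripts were unevenly spread among marker-poor members, where 5 cells held 56.1% of the 269 TYRP1 UMIs. For DCT the 5 highest marker-poor members held 14.7% of the UMIs and for PMEL 4.31%.

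Genes that move and place melanosomes were lower as well. RAB38, a small GTPase that delivers pigment enzymes, had 195 CPM in marker-poor members and 327 CPM in low cells, a ratio of 0.596 (0.548 to 0.648). RAB27A and MLPH, which tether melanosomes to the motor MYO5A, had ratios of 0.595 (0.502 to 0.703) and 0.495 (0.378 to 0.639). With only gated cells under 2 UMIs per 10000 of other cell type markers, ranked again into 51 high and 168 low cells, the MLPH ratio was 1.05. TRPM1, a cation channel whose gene is an established MITF target, had 191 CPM in marker-poor members and 298 CPM in low cells, a ratio of 0.639 (0.587 to 0.696). BLOC1S1 and DTNBP1, subunits of an organelle assembly complex that many cell types use, and the copper transporter gene ATP7A had ratios of 0.983, 1.05 and 1.05, within 1.5-fold of equal levels.

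The promoters of these pigment genes are shown because 14 of the 27 tested genes of the list were lower in members. MITF is known to bind CATGTG and CACGTG, called M-box and E-box words. In the 300 bases from 250 before to 50 after the RefSeq start (GRCh38.p14), CATGTG was found on either strand in 10 of 26 listed melanin genes with a promoter in the table (38.5%), against 3065 of 27305 promoters of all genes (11.2%). CACGTG was found in 6 of the 26 (23.1%), against 7.44% of all promoters, and either word in 15 of 26 (57.7%), against 17.9%. Occurrences of the 2 words cannot overlap each other, and CACATG below is CATGTG read on the other strand. A match describes the letters in the window and is not a binding site. Capitals mark the word in 30 bases read 5′ to 3′ on the gene's strand.
TYR, chr11:89177759-89177788, plus strand: agaaaagtcagtCATGTGcttttcagagga
TYR, chr11:89177851-89177880, plus strand: tctcagccaagaCATGTGataatcactgta
TYRP1, chr9:12693229-12693258, plus strand: ttggaagggaatCATGTGctgatcaagtcc
TYRP1, chr9:12693362-12693391, plus strand: caggcagcaatcCACATGcacttaacagtt
TRPM1, chr15:31161151-31161180, minus strand: accaaaagccagCACATGctcctcctaggc
SLC24A5, chr15:48120963-48120992, plus strand: aaggagactcctCACATGatccagtttaat
MLPH, chr2:237487204-237487233, plus strand: cggggcgcagccCACGTGgttcgggcggga

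Counted from the RefSeq start, the words begin at -104 and -12 in TYR, at -144 and -11 in TYRP1, at -8 in TRPM1, at -15 in SLC24A5 and at -35 in MLPH. Of the 15 genes with either word, MLPH, TYRP1, TYR, TRPM1, SLC24A5, SLC7A5 and TSPAN10 were among the 14 lower in the 374 members. KCNJ13, GPNMB, HPS5, BLOC1S1, CD63, OCA2, GPR143 and ATP7A were not among them. GPNMB holds CACATG at -123 and -62, and its ratio in marker-poor members was 1.01. Whether the words bear on the levels was not tested. The windows of the G2 and M phase genes held either word in 5 of 44 (11.4%). Those of the lysosome and proton pump genes held CACGTG in 7 of 17 (41.2%), and none of the 29 genes of that list tested in D23 passed 1.5-fold.

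Regulators of the lineage lay near the level of low cells. Of 15 tested transcription factors and receptors of melanocytes, 2 were 1.5-fold higher and 1 lower in marker-poor members, with a median log2 ratio of 0.091. TFAP2B, an AP-2 factor of early neural crest, was higher, with 140.4 CPM in marker-poor members and 54.3 CPM in low cells, a ratio of 2.59 (2.31 to 2.90). LEF1, a nuclear effector of WNT signals, was higher, with a ratio of 1.62 (1.33 to 1.96). BHLHE41, a circadian repressor, was the lower one, with 65.4 CPM in marker-poor members and 118 CPM in low cells, a ratio of 0.555 (0.479 to 0.640).

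The related AP-2 gene TFAP2A and the growth factor receptor gene KIT showed ratios of 1.05 (0.979 to 1.13) and 1.07 (0.945 to 1.20). PAX3, the paired box factor that activates MITF in crest cells, had 154 CPM in marker-poor members and 119 CPM in low cells, a ratio of 1.30 (1.18 to 1.44). EDNRB, the endothelin receptor, had a ratio of 0.802 (0.690 to 0.929). IRF4, a factor that acts with MITF at the TYR enhancer, had a ratio of 0.760 (0.609 to 0.940).

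**Figure D3:**
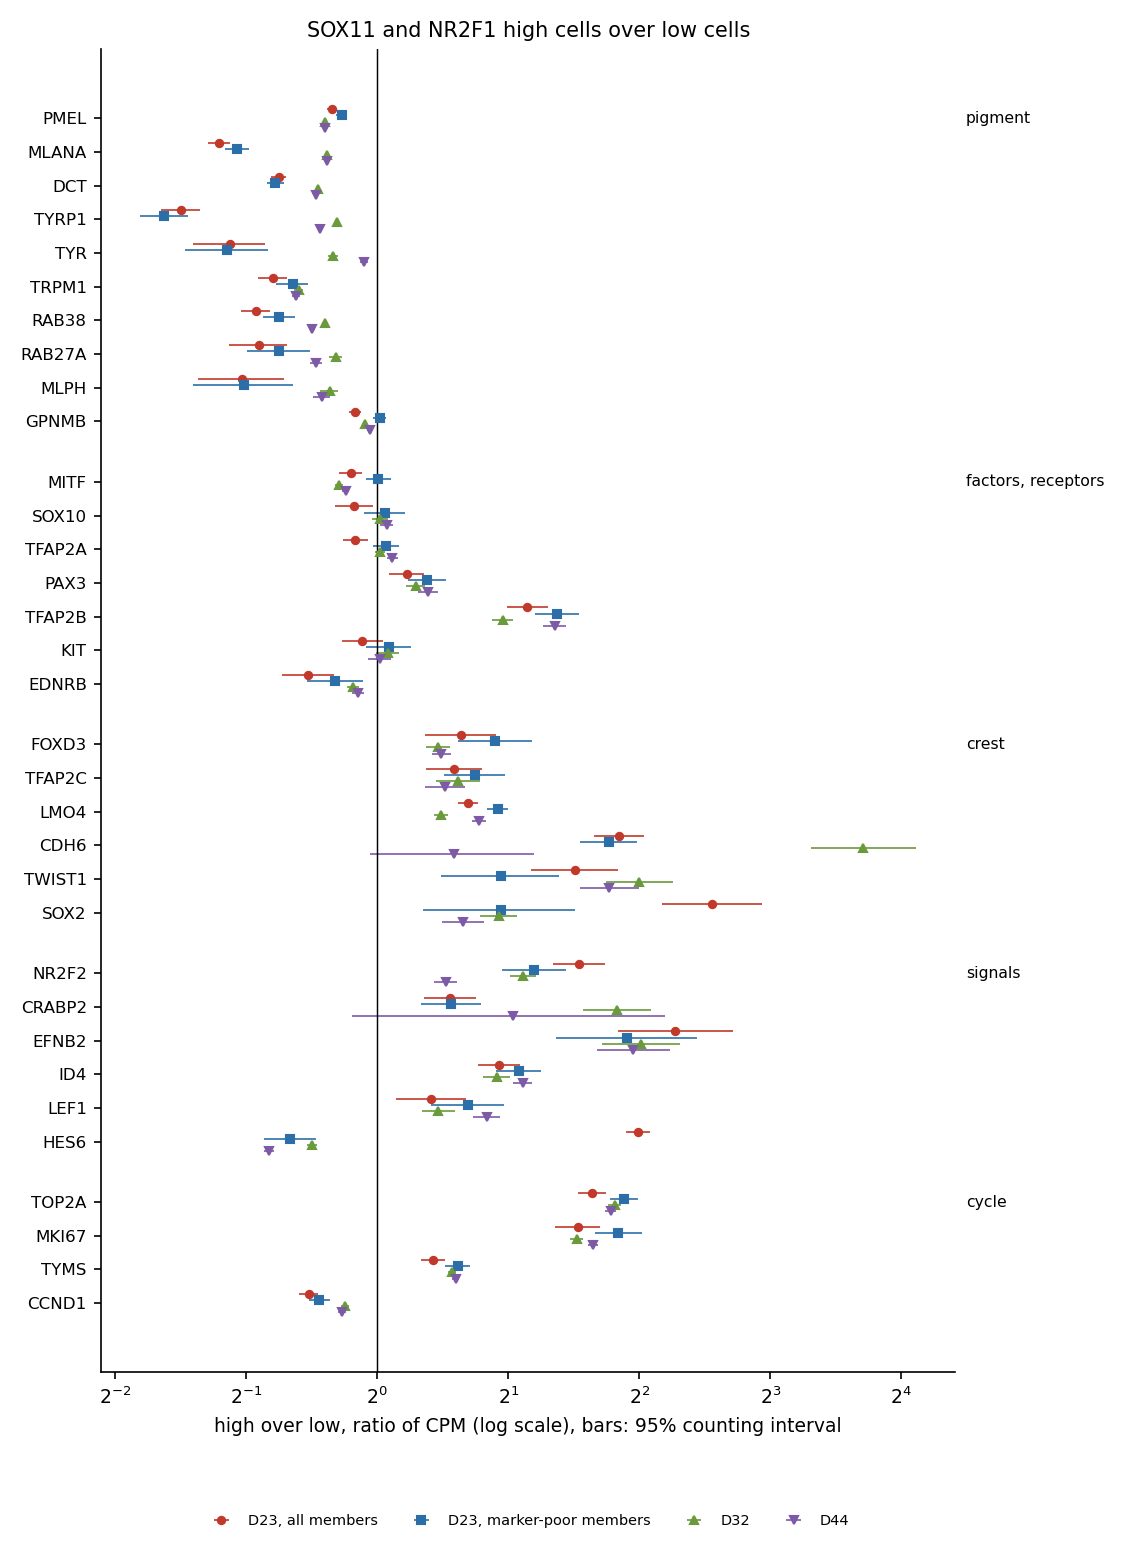
Ratio of high over low cells (CPM over CPM, log scale) for named genes, with 95% counting intervals, in D23 for all 374 members (red circles) and the 254 marker-poor members (blue squares), and in D32 (green) and D44 (purple) for cells chosen by the same rule. PMEL, MLANA, DCT, TYRP1, TYR and TRPM1 lie left of the line at 1 and TFAP2B, LMO4, ID4, EFNB2 and TOP2A right of it in all 4 sets, whereas HES6 lies right of it only for all D23 members.

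Several genes of neural crest progenitors were higher. Of 23 genes 17 were tested, and 11 were 1.5-fold higher and 1 lower in the 374 members, with a median log2 ratio of 0.69. Of the 17, 5 reached 10 CPM in members only and so had to be higher there: SOX2, NGFR, ID1, ID2 and ID3. In marker-poor members 7 of 13 were higher and 1 lower, with a median of 0.75, and SOX2 and TWIST1 entered through the members only. FOXD3, a crest factor that represses MITF, had 45.0 CPM in marker-poor members and 24.1 CPM in low cells, a ratio of 1.87 (1.53 to 2.27). LMO4, a LIM adaptor that works with crest factors, had 527 CPM in marker-poor members and 278 CPM in low cells, a ratio of 1.89 (1.79 to 2.00). CDH6, a cadherin of crest cells as they leave the neural tube, had 92.1 CPM in marker-poor members and 27 CPM in low cells, a ratio of 3.41 (2.93 to 3.96).

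TFAP2C, another AP-2 gene, and TWIST1, a factor of migrating crest and mesenchyme, had ratios of 1.68 (1.43 to 1.97) and 1.93. Ranked by NR2F1 alone, the TFAP2C ratio was 0.969. SOX9, a crest SOX factor, had a ratio of 1.69 (1.24 to 2.28). MYC was the gene lower in members, with 87.7 CPM in marker-poor members and 140.3 CPM in low cells, a ratio of 0.625 (0.550 to 0.708). ID1, ID2 and ID3, targets of BMP signals, passed 1.5-fold in the 374 members but not in the marker-poor ones: ID3 had 234 CPM in CRABP1-rich members and 3.72 CPM in marker-poor members, against 5.49 CPM in low cells.

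Of 8 SOX genes tested outside the ranking, 3 were 1.5-fold higher in the 374 members and 2 in marker-poor members, with median log2 ratios of 0.23 and 0.36, and 1 of the 8 (SOX2) reached 10 CPM in members only. SOX4, which belongs to the same subgroup as SOX11, had 992 CPM in marker-poor members, 1803 CPM in CRABP1-rich members and 684 CPM in low cells, and the ratio for marker-poor members was 1.46 (1.41 to 1.52). SOX12, the remaining gene of that subgroup, had 36.3 CPM in marker-poor members and 28.7 CPM in low cells, a ratio of 1.26 (1.02 to 1.55). SOX2, a factor of neural stem cells, lay mainly in the CRABP1-rich members at 165 CPM, with 11.2 CPM in marker-poor members and 5.73 CPM in low cells. Among marker-poor cells with few mitotic transcripts its ratio was 0.619 (0.162 to 1.69).

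Of 10 NR2F and retinoid genes, 4 were 1.5-fold higher in the 374 members and 2 of 9 in marker-poor members, with median log2 ratios of 0.48 and 0.37. Of the 10, 2 reached 10 CPM in members only. NR2F2, the closest relative of NR2F1, had 63.6 CPM in marker-poor members and 27.7 CPM in low cells, a ratio of 2.30 (1.94 to 2.71), and NR2F1-AS1, transcribed next to NR2F1 on the opposite strand, had a ratio of 2.28 (1.67 to 3.09). Reads of 2 genes that overlap can only be told apart by strand, which the counting setting is not stated to have used. NR2F6 had 46.5 CPM in marker-poor members and 43.5 CPM in low cells. CRABP2, the other carrier of retinoic acid, had 63.6 CPM in marker-poor members and 42.9 CPM in low cells, a ratio of 1.48 (1.26 to 1.73). The receptor genes RARA, RARB, RXRA and RXRG had ratios of 1.29, 1.32, 1.20 and 1.17 in marker-poor members.

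Schwann cell precursor genes were near the level of low cells. Of 10 tested, 2 were 1.5-fold higher and 1 lower in the 374 members, with a median log2 ratio of -0.14 (1 of the 10 reached 10 CPM in members only and 1 in low cells only), and 1 of 9 was higher and 1 lower in marker-poor members. MBP, a major protein of myelin, was the lower one, with 37.2 CPM in marker-poor members and 68.6 CPM in low cells, a ratio of 0.543 (0.446 to 0.655).

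Genes of the neuronal cytoskeleton followed the CRABP1-rich cells in part. Of 17 tested, 11 were 1.5-fold higher in the 374 members, and 3 of 16 were so in marker-poor members, with median log2 ratios of 1.02 and 0.33. Of the 17, 1 reached 10 CPM in members only. TUBB2B, a tubulin of young neurons, had 1092 CPM in CRABP1-rich members, 61.4 CPM in marker-poor members and 39.5 CPM in low cells, a ratio of 1.55 (1.32 to 1.82) for marker-poor members. GAP43, a growth cone protein, and TMSB15A, a thymosin that binds actin, had ratios of 2.65 (2.03 to 3.44) and 1.76 (1.57 to 1.97) in marker-poor members. TUBB3 had 1765 CPM in CRABP1-rich members, 354 CPM in marker-poor members and 269 CPM in low cells.

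Cell cycle genes formed the broadest group that was higher. Of 52 G2 and M phase genes, 45 were 1.5-fold higher in the 374 members and 46 in marker-poor members, none was lower in either set, and the medians of the log2 ratio were 1.07 and 1.32. Of the 52, 5 reached 10 CPM in the members only. TOP2A, which untangles DNA before mitosis, had 366 CPM in marker-poor members and 99.2 CPM in low cells, a ratio of 3.69 (3.42 to 3.98). MKI67, a marker of proliferating cells, had a ratio of 3.58 (3.16 to 4.05), and HMGB2, a chromatin protein of dividing cells, one of 3.49 (3.17 to 3.84). CRABP1-rich members did not share this, with 88.0 CPM of TOP2A and 12.6 CPM of MKI67.

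S phase genes moved less. Of 37 tested, 9 were 1.5-fold higher in the 374 members, and in marker-poor members 16 of 38 were higher and 1 lower, with median log2 ratios of 0.42 and 0.51. Of the 37, 4 reached 10 CPM in the members only. The count was lost where the ranking changed: on thinned counts 0 of 39 S phase genes were 1.5-fold higher, with a median of 0.26, and on NR2F1 alone 1 of 38, with a median of 0.22. TYMS, which makes thymidylate, had 348 CPM in marker-poor members and 227 CPM in low cells, a ratio of 1.53 (1.43 to 1.64). CCND1, the cyclin of G1, had 451 CPM in marker-poor members and 613 CPM in low cells, a ratio of 0.736 (0.696 to 0.778).

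Pigment genes were also lower among cells with few mitotic transcripts. The bottom 50% of gated cells by G2 and M phase UMIs included 111 marker-poor members and 652 marker-poor low cells, with TOP2A at 5.91 and 6.26 CPM. MLANA had 387 CPM in those members and 712 CPM in those low cells, a ratio of 0.543 (0.492 to 0.597), and DCT and TYRP1 had ratios of 0.667 (0.625 to 0.712) and 0.374 (0.306 to 0.453). TFAP2B had 170.5 CPM in those members and 58.5 CPM in those low cells, a ratio of 2.92 (2.47 to 3.44), and CDH6, NR2F2 and SOX4 had ratios of 3.66 (2.87 to 4.64), 2.29 (1.71 to 3.03) and 1.51 (1.42 to 1.61). CCND1 and MYC moved closer to equal levels, with ratios of 0.995 (0.923 to 1.07) and 0.816 (0.682 to 0.969). Over all genes 632 of 8675 were higher (7.29%) and 366 lower (4.22%) in this comparison, and 9 of 27 melanin genes were lower. With the other kinds of member kept, 978 of 8929 genes were higher (11.0%) and 386 lower (4.32%).

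Signalling genes gave a mixed picture. Of 12 WNT genes tested, 5 were 1.5-fold higher in the 374 members and 3 of 11 in marker-poor members: the receptor FZD2, with a ratio of 1.83 (1.30 to 2.55), the effector LEF1 given above and the effector TCF7L2, with a ratio of 1.59 (1.36 to 1.85). The median log2 ratio of the WNT genes was 0.50 in the 374 members and 0.46 in marker-poor members, and 3 of the 12 reached 10 CPM in all members only. AXIN2, a feedback gene of WNT signals, had 19.7 CPM in all members, 9.92 CPM in marker-poor members and 6.15 CPM in low cells. Of 11 BMP and TGF-beta genes, 4 were 1.5-fold higher in the 374 members, 3 of the 11 having reached 10 CPM in members only, and 1 of 8 in marker-poor members. That gene was ID4, an inhibitor of basic helix-loop-helix factors, with 122 CPM in marker-poor members against 57.6 CPM in low cells and a ratio of 2.12 (1.88 to 2.38).

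Of 11 Notch genes, 4 were 1.5-fold higher in the 374 members, and in marker-poor members none of 9 was higher and 2 were lower, with median log2 ratios of 0.29 and 0.18. Of the 11, 2 reached 10 CPM in all members only. HES6 was lower in marker-poor members, with 71.6 CPM against 113 CPM in low cells and a ratio of 0.632 (0.549 to 0.725), although the CRABP1-rich members lifted its ratio over all members to 3.98 (3.73 to 4.24). JAG1, a Notch ligand, was the other, with a ratio of 0.655 (0.490 to 0.860). EFNB2, an ephrin that guides crest cells, was the 1 of 6 axon guidance genes past 1.5-fold in marker-poor members, with 16.4 CPM in marker-poor members and 4.38 CPM in low cells, a ratio of 3.75 (2.58 to 5.43) that rests on 53 UMIs in the members. It reached 10 CPM in the members only, so it had to be higher there.

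The 15 lowest ratios in the 374 members belonged to SLC16A6, TYRP1, PLXNC1, MLANA, AC113418.1, FAM167B, S100A1, AL139246.5, DUSP10, TYR, HLA-F-AS1, PDLIM3, PTGDS, MLPH and AL159166.1. All but TYRP1, MLANA, S100A1, TYR, PTGDS and AL159166.1 lay under 20 CPM in members. They met the minimum of 20 CPM for this list through low cells alone and so had to be lower. The lowest ratio was that of SLC16A6, a monocarboxylate transporter, with 10.3 CPM in members and 30.2 CPM in low cells, a ratio of 0.342 (0.247 to 0.463). PLXNC1, a semaphorin receptor, S100A1, a calcium-binding protein, and PTGDS, a prostaglandin synthase, had ratios of 0.384 (0.272 to 0.531), 0.445 (0.377 to 0.524) and 0.489 (0.452 to 0.529). Without CRABP1-rich members the 15 highest ratios belonged to TTR, NEFM, NFIA, TAGLN, COL1A1, TLE4, CDCA2, EFNB2, CTHRC1, CDH6, GAP43, TOP2A, SLC38A1, MSX1 and NDC80, of which TTR, NEFM, COL1A1, TAGLN (90.3% of the UMIs) and MSX1 (82.9%) came mainly from marker-rich members. All of these but COL1A1, CDH6 and TOP2A lay under 20 CPM in low cells and met the minimum of 20 CPM through the members alone. Such genes had to be higher, so their place in the list describes those members and supports nothing further. CDCA2 and NDC80, which act at mitotic chromosomes and are among these genes, had ratios of 4.94 and 3.72 in marker-poor members.

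The 296 members outside the CRABP1-rich group were mostly led by NR2F1: 234 had more NR2F1 than SOX11 UMIs, 48 had more SOX11 and 14 had as many of each. MITF stood at 318 CPM in SOX11-led and 320.1 CPM in NR2F1-led members, SOX10 at 101 and 120.5 CPM, and PMEL at 1538 and 1523 CPM. TYRP1 stood at 276 CPM in SOX11-led and 42.3 CPM in NR2F1-led members, a ratio of 6.53 (5.16 to 8.28), but 5 of the 48 SOX11-led cells held 78.2% of their 165 TYRP1 UMIs. TOP2A had 429 CPM in SOX11-led and 325 CPM in NR2F1-led members, a ratio of 1.32 (1.15 to 1.52). COL1A1 at 18.4 and 154 CPM and NEFM at 15.1 and 144 CPM lay on the NR2F1-led side, which also held all 15 doublet calls. Ranked by SOX11 alone, 4 of 27 melanin genes were 1.5-fold lower and 47 of 52 G2 and M phase genes higher. Over all genes 69 of 8770 were lower and 608 higher in that ranking. Ranked by NR2F1 alone, 13 of 27 melanin genes were lower and 23 of 52 G2 and M phase genes higher. Over all genes 170 of 8813 were lower and 500 higher there, so the background of lower genes differed between the rankings as well.

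The pigment genes varied along the whole range of the sum and not only at its upper end. The 2409 gated cells under the CRABP1 limit were cut into 10 bins of equal size by the SOX11 and NR2F1 sum. In the highest bin MLANA had 292 CPM, against 813 CPM in the lowest bin, DCT had 668 against 1511 CPM, and TRPM1 had 188 against 335 CPM. TYRP1 lay at 69.9 and 83.7 CPM in the 2 highest bins and between 158 and 366 CPM in the others. MITF at 316 and 350.3 CPM and SOX10 at 115 and 120 CPM in the highest and lowest bin showed no such slope. TFAP2B had 139 CPM in the highest bin, against 41.1 CPM in the lowest, and the G2 and M phase genes together had 6210 against 2365 CPM.

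**Figure D4:**
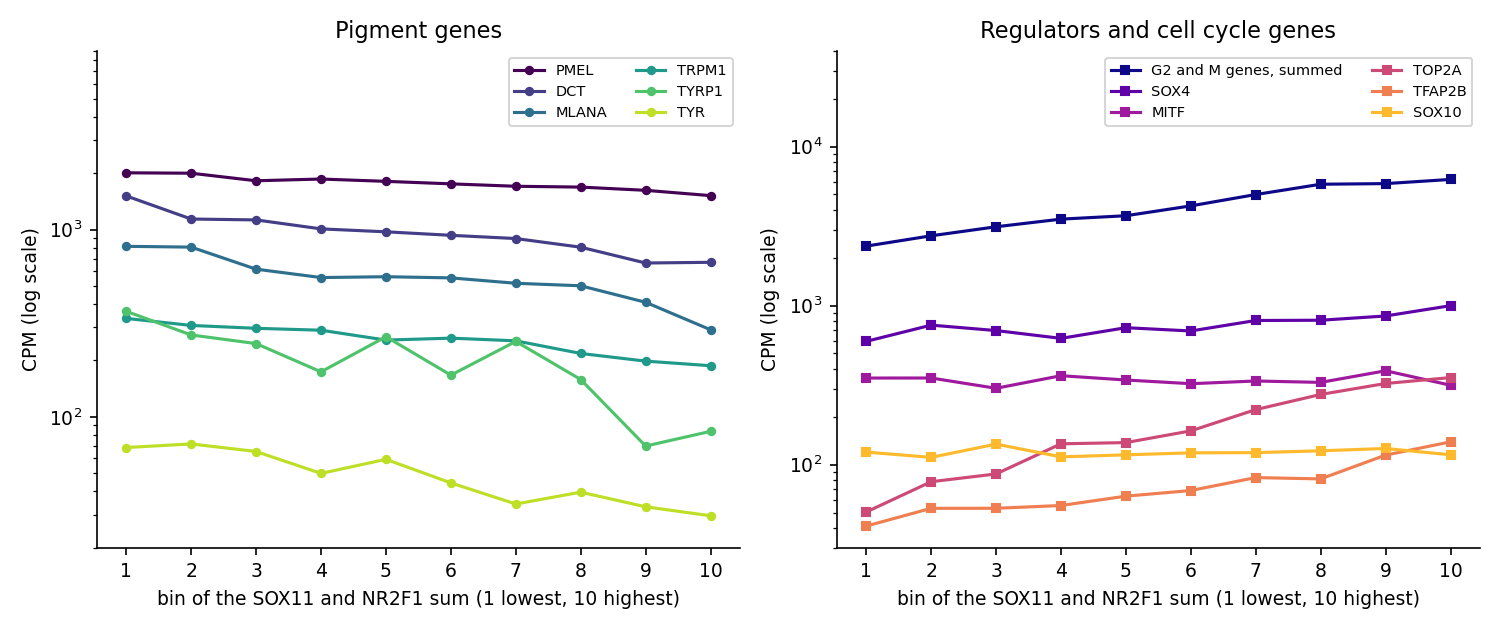
Level in CPM (log scale) of pigment genes (left) and of regulators and cell cycle genes (right) in 10 bins of the SOX11 and NR2F1 sum over the 2409 gated D23 cells under 5 CRABP1 UMIs per 10000, bin 10 being the highest. Each point is 1 bin of 240 or 241 cells of the same library, so no error over samples can be given; pigment genes decline across the bins while MITF and SOX10 run level and TFAP2B, TOP2A and the G2 and M phase genes climb.

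Whether these differences recur was tested in D32 and D44, which the rule had not used. The same rule gave 843 high and 2809 low cells in D32 and 861 high and 2869 low cells in D44. The limits there were far lower, 1.04 and 0.859 UMIs per 10000, or about 3.85 and 3.69 UMIs at the median depth, so these high cells carried much less SOX11 and NR2F1 than the D23 members. UMIs were summed per library and group, and edgeR's quasi-likelihood test was run on the 4 sums, keeping the library as a block. That leaves 1 residual degree of freedom, and the p-values measure recurrence over 2 libraries of the same induction. At an adjusted p of 0.05 or less 2520 of 16309 genes rose (15.5%) and 2709 fell (16.6%). The fold changes are relative to TMM scaling: scaled by total UMIs, 4004 genes rose and 1345 fell, and the median of all genes was 0.086 on the log2 scale. Without the library block no gene passed, and 1313 had an unadjusted p under 0.05 (edgeR). Put with D23 in place of D32, D44 gave 428 genes higher and 285 lower, and D32 put with D23 in place of D44 gave 935 higher and 780 lower.

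Pigment genes fell again. Of 30 melanin genes tested, 26 fell and none rose, with a median log2 fold change of -0.45, against -0.0023 over all genes. MLANA had 1226 CPM in high cells of D32 and 1599 CPM in those of D44, against 1599 and 2083 CPM in low cells, a log2 fold change of -0.47 ± 0.026, adjusted p = 1.05e-07 (edgeR). PMEL had 4044 CPM in high cells of D32 and 4068 CPM in those of D44, against 5338 and 5359 CPM in low cells, a log2 fold change of -0.49 ± 0.025, adjusted p = 5.15e-08 (edgeR). For TRPM1 the levels were 265 CPM in high cells of D32 and 279 CPM in those of D44, against 402 and 429.8 CPM in low cells, and the log2 fold change was -0.70 ± 0.029, adjusted p = 7.67e-09 (edgeR). The falls were of smaller size than in D23 for MLANA, TYRP1 and TYR. Their ratios over the groups were 0.767, 0.808 and 0.791 in D32 and 0.768, 0.739 and 0.934 in D44. This did not hold for PMEL, whose gap was no smaller in D32 and D44 than in D23. The difference from D23 was not tested.

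Of 19 regulators 8 rose and 5 fell, with a median log2 fold change of 0.084. TFAP2B had 56.9 CPM in high cells of D32 and 48.0 CPM in those of D44, against 29.3 and 18.8 CPM in low cells, a log2 fold change of 1.06 ± 0.070, adjusted p = 4.79e-07 (edgeR). SOX10 had 91.4 CPM in high cells of D32 and 111 CPM in those of D44, against 89.9 and 106 CPM in low cells, and its log2 fold change of -0.040 ± 0.034, adjusted p = 0.419 (edgeR), did not pass. MITF fell, with 297 CPM in high cells of D32 and 305 CPM in those of D44. Low cells had 363 and 360.5 CPM, and the log2 fold change was -0.35 ± 0.029, adjusted p = 3.58e-06 (edgeR). The D23 ratio of 1.01 was that of marker-poor members alone, a narrower set than all high cells. It left out the CRABP1-rich members, in which MITF was lower than in low cells. The 2 are thus not like for like, and a difference between days was not tested. LMO4, ID4, EFNB2 and NR2F2 rose, with log2 fold changes of 0.54, 0.93, 1.89 and 0.72 and adjusted p of 1.21e-05, 6.8e-08, 6.53e-07 and 0.000196 (edgeR). CDH6 rose by 2.38 on the log2 scale (adjusted p = 0.0031, edgeR), but its ratio was 13.0 in D32 and 1.5 in D44. HES6 fell, with 189 CPM in high cells of D32 and 150.1 CPM in those of D44, against 266 and 266 CPM in low cells and a log2 fold change of -0.75 ± 0.059, adjusted p = 2.47e-06 (edgeR).

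By list, 11 of 23 crest genes rose and 2 fell, 14 of 22 WNT genes rose and none fell, and all 52 G2 and M phase genes rose, with a median log2 fold change of 1.26. Of 30 lysosome and proton pump genes, 23 fell and none rose, with a median log2 fold change of -0.20 under TMM scaling. As log2 ratios of CPM their medians were -0.12 in D32 and -0.085 in D44. In D23 none of the 29 tested passed 1.5-fold, and their median log2 ratio of CPM was -0.22 in the 374 members. Mesenchymal markers rose in 10 of 13 and neural tube markers in 10 of 12. The summed level of the 14 mesenchymal markers was 309.6 and 98.9 CPM in high cells of D32 and D44, against 154 and 66.2 CPM in low cells. That of the 21 neural tube markers was 446 and 126 CPM in high cells, against 139 and 106 CPM in low cells, and 40 high cells of D32 were CRABP1-rich. Without marker-rich cells 2701 genes rose and 2889 fell.

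Fewer genes passed among cells with few mitotic transcripts. In the bottom 50% of gated cells by G2 and M phase UMIs, 324 of 14717 genes rose (2.2%) and 673 fell (4.57%). There 19 of 30 melanin genes still fell, with log2 fold changes of -0.31 for MLANA (adjusted p = 0.00048, edgeR) and -0.46 for TRPM1 (adjusted p = 0.000447, edgeR). TFAP2B still rose, by 0.95 on the log2 scale (adjusted p = 0.00245, edgeR), as did EFNB2, by 2.50 (adjusted p = 0.000447, edgeR). LMO4, TYR and CCND1 no longer passed, with log2 fold changes of 0.098, -0.11 and -0.029 and adjusted p of 0.462, 0.112 and 0.696 (edgeR).

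SOX11 and NR2F1 were far lower in the later libraries. Over all gated cells D23 had 223 CPM of SOX11 and 282 CPM of NR2F1, D32 had 35.3 and 21.9 CPM, and D44 had 25.7 and 18.7 CPM. The D23 limit was set so that 15% of its gated cells passed, so its shares are a description of the rule. On the counts as deposited 3 of 5618 D32 cells passed that limit and 0 of 5737 D44 cells, for which the exact interval reaches 0.0643% and 3 cells would be 0.0523%. With each cell thinned to 5000 UMIs, it was passed by 324 of 2416 D23 cells, 13.4% (95% exact binomial interval 12.1% to 14.8%), by 5 of 5618 D32 cells, 0.0890% (0.0289% to 0.208%), and by 2 of 5737 D44 cells, 0.0349% (0.00422% to 0.126%). Gated cells under 5000 UMIs were left out there, which lowered D23 to 2416 of 2490 cells, and the CRABP1-rich members had a median of only 5396 UMIs. The intervals cover the counting of cells of 1 library each. The day, the induction and the sequencing batch change together here, and their parts cannot be told apart.

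**Figure D5:**
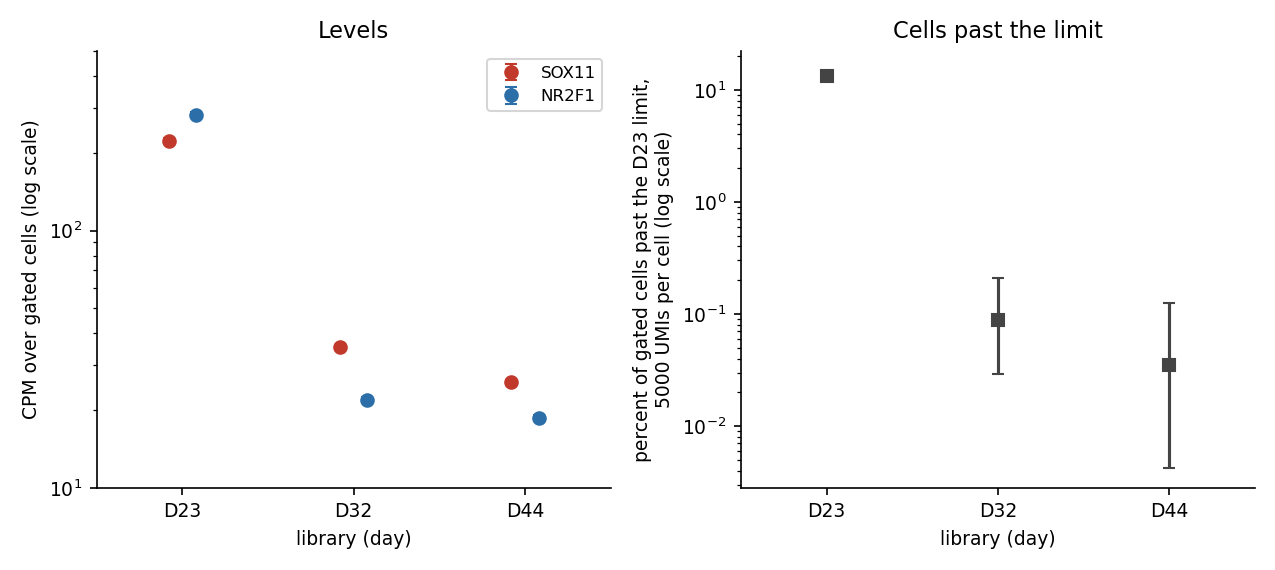
Left, SOX11 (red) and NR2F1 (blue) in CPM (log scale) over all gated cells of D23, D32 and D44, with 95% Poisson intervals smaller than the points. Right, percent of gated cells with at least 5000 UMIs past the D23 member limit after thinning to 5000 UMIs a cell (log scale), with 95% exact binomial intervals, at 13.4% in D23, 0.0890% in D32 and 0.0349% in D44.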

How the data were processed

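The deposited matrices hold counts, whole UMIs per gene and cell barcode, which the authors made with Cell Ranger 6.1.2 on GRCh38 (hg38) from 3 droplet libraries, 1 a day. Cells were kept with MT- UMIs under 10% and with 1000 to 7000 genes and under 50000 UMIs in D23, or 3000 to 9000 genes and under 100000 UMIs in D32 and D44. UMIs were summed over the cells of a group and divided by the group's total (CPM). D23 had no test: a gene counted as higher or lower at 1.5-fold among genes at 10 CPM or more in either group, with exact binomial (Clopper-Pearson) intervals for ratios. Named genes came from 21 lists and from the 15 highest and 15 lowest ratios among genes at 20 CPM or more. D32 and D44 sums were tested with edgeR 4.0.16 (quasi-likelihood, TMM, library block, Benjamini-Hochberg over all genes), with DESeq2 1.42.0 as an alternative. Doublets were scored with Scrublet (scanpy 1.11.5) and kept, since its calls worked in D23 but not in D32 and D44. The cells and the gene lists were chosen with earlier results of these data known. Gene positions are from GENCODE 44, promoter sequences from RefSeq. Scripts were tested on simulated data.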

Additional observations from a re-analysis of the deposited data

Results flagged for a closer look

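HES6 had a D23 ratio of members over low cells of 3.98, with 448 CPM in members and 113 CPM in low cells, whereas its ratios were 0.709 in D32 and 0.564 in D44. DLL3 had a D23 ratio of 11.8, with 78.3 CPM in members and 6.63 CPM in low cells, against 0.851 in D32 and 0.575 in D44. Both genes lay on opposite sides of 1 in D23 and in the later libraries, and this difference was not tested. The CRABP1-rich members held 2721 CPM of HES6 and 506 CPM of DLL3, and marker-poor members had D23 ratios of 0.632 and 0.978.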

How the results depend on the processing

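The counts of D23 genes past 1.5-fold, 677 higher and 164 lower, moved with every choice of level and fold: a minimum of 5 CPM gave 1035 higher and 301 lower, 50 CPM gave 149 and 39, no minimum gave 4170 and 1236, and 2-fold gave 322 and 27. A pigment gate of 5 gave 1149 higher and 438 lower, and a gate of 20 gave 104 lower. Ranks on thinned counts gave 258 higher and 49 lower, ranks on SOX11 alone 69 lower, and the top 10% 324 lower. Cells under 2 UMIs per 10000 of other cell type markers gave 1350 higher and 840 lower, and CRABP1-poor cells ranked again gave 429 higher. The bottom 50% by G2 and M phase UMIs gave 386 lower, 366 lower for marker-poor cells, cells of middle depth gave 293 lower, and means over cells gave 256 lower. Leaving out G2 and M phase cells left 3 and 10 cells in D23, with 8019 of 9234 genes higher and 357 lower, values that were not used; it was not run in D32 and D44, where 1 and 5, and 4 and 12 cells were left.

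In D32 and D44, where 2520 genes rose and 2709 fell, DESeq2 gave 885 higher and 1348 lower, no filter on low counts gave 1372 higher, total UMIs gave 4004 higher and 1345 lower, and thinned ranks gave 1091 higher and 1205 lower. The bottom 50% by G2 and M phase UMIs gave 324 higher and 673 lower, and all 3 libraries together gave 1286 higher. The library block pairs high and low cells of 1 library: without it 0 genes passed (edgeR), 1313 had an unadjusted p under 0.05, and DESeq2 with the block called the 885 and 1348 above. With D23 put in place of D32 or D44, 428 to 935 genes rose and 285 to 780 fell.

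Across days, a gate of 20 gave 172 CPM of SOX11, 229 CPM of NR2F1 and 9.91% of cells past the limit in D23, and 0 cells past it in D32. Thinned counts gave 13.4% of D23 cells, 22.8 CPM of NR2F1 in D32, and 23.9 CPM of SOX11 and 19.3 CPM of NR2F1 in D44.

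Of 110 named genes with a D23 ratio, these changed side. Without cells rich in other markers the ratios were 0.229 for TTR, 0.541 for ID2, 0.632 for HES6, 0.745 for ID3, 0.803 for COL1A1, 0.852 for MSX1, 0.946 for TAGLN and 0.978 for DLL3. Under the limit of 2 UMIs they were 0.466 for NEFM, 0.532 for CRABP1, 0.573 for ID3, 0.617 for HES6, 0.677 for DLL3, 0.745 for MSX1, 0.776 for PTN, 0.980 for ID2, 1.03 for PLXNC1 and 1.05 for MLPH. Without CRABP1-rich cells HES6 had 0.620, and ranked again HES6 had 0.611 and DCC 0.853. In cells of middle depth they were 0.797 for CTHRC1, 0.837 for NEFM, 0.852 for MSX1 and 0.901 for ID3. TTR had 0.882 at a gate of 20, 0.868 ranked on SOX11 alone and 0.918 without the top 5% of doublet scores, and TFAP2C had 0.969 ranked on NR2F1 alone. In the bottom 50% by G2 and M phase UMIs they were 0.364 for NDC80 and 0.970 for MKI67, and for marker-poor cells 0.485 for NDC80, 0.527 for ID2, 0.571 for TAGLN, 0.619 for SOX2, 0.624 for ID3, 0.796 for HES6, 0.835 for COL1A1, 0.898 for HMGB2, 0.910 for CTHRC1, 0.910 for MKI67, 0.943 for TOP2A and 0.949 for NEFM. Cells were left out by these markers or phases in most of these, and otherwise the cause was not tested.

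In D32 and D44 log2 fold changes changed sign for HES6 (0.00016) and DLL3 (0.31) in all 3 libraries, for TYMS (-0.048) and PTGDS (0.18) in the bottom 50% by G2 and M phase UMIs, and for CTHRC1 (-0.15) and TAGLN (-0.32) without marker-rich cells. With D23 in place of a library HES6 had 0.43 to 0.58 and DLL3 0.93 to 1.27, and with D23 in place of D44 BLOC1S1 had 0.00973. The cause was not tested.

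D23 is 1 library with no replicate, its intervals cover counting error only, and members were picked by about 10.3 UMIs, so low and high cells overlap in true level. Genes under 10 CPM in both groups entered no count, and the TTR ratio of 0.229 rests on 1 UMI in marker-poor members.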

Other observations

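Genes of embryonic tissue, some of them imprinted, were higher in the 374 members in 7 of 14 tested (7.64% of all genes were so), with a median log2 ratio of 0.88. In marker-poor members 2 of 13 were higher, with a median of 0.32. HMGB2, which is also on the G2 and M phase list, was among the 7, and the 2 were HMGB2 and PTN. PEG10, an imprinted gene of retrotransposon origin, had 1413 CPM in CRABP1-rich members, 109.7 CPM in marker-poor members and 94.5 CPM in low cells. PTN, the secreted factor pleiotrophin, had 23.9 CPM in marker-poor members and 10.8 CPM in low cells, a ratio of 2.21 (1.67 to 2.91). In D32 and D44 12 of 15 of these genes rose, with log2 fold changes of 0.51 for PEG10 (adjusted p = 4.24e-06, edgeR) and 0.85 for PTN (adjusted p = 0.00303, edgeR).

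Stress genes were mixed. Among 20 tested in D23, 2 were 1.5-fold higher in all members (IER3 and SESN2) and 2 lower (GDF15 and HMOX1). The median log2 ratio was 0.025, and 3 of the 20 reached 10 CPM in members only and 1 in low cells only. Over all genes 7.64% were higher and 1.85% lower. The marker-poor members had 1 of 18 higher and 2 lower, with a median of -0.012. By edgeR 8 of 24 rose and 7 fell in D32 and D44. GDF15, a secreted stress factor, had 24.2 CPM in marker-poor members and 43.2 CPM in low cells, a ratio of 0.559 (0.437 to 0.708), and fell in D32 and D44 with a log2 fold change of -0.93 (adjusted p = 1.84e-07, edgeR). HMOX1, heme oxygenase, had 11.5 CPM in marker-poor members and 21.1 CPM in low cells, a ratio of 0.544 (0.376 to 0.765). None of 17 glycolysis genes passed 1.5-fold in D23. Among 12 tested BCL2 family and CDK inhibitor genes, none was higher and 3 were lower in marker-poor members, with a median log2 ratio of 0.037. Over all members 1 of 12 was higher and none lower. BBC3, which encodes the cell death protein PUMA, had a ratio of 0.569 (0.374 to 0.838) in marker-poor members. BCL2, its antagonist in cell survival, had one of 1.05 (0.781 to 1.38).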
